A study of Mus musculus with 64 samples.

Results

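The comparison described here sets Ahr-/- against Ahr+/+ bone marrow-derived macrophages (BMMs) that received neither ligand nor activation and were harvested at the 20 h time point. Its members were taken by the genotype, the missing ligand, the missing activation and the time in the sample titles, which gave 4 Ahr-/- and 4 Ahr+/+ libraries, 8 of the 64 in the series. Reads of RNA sequencing were counted against 55487 annotated genes, many of them without reads. Of these, 14537 had enough reads over the 64 libraries of the series to be tested. The same filter on these 8 libraries alone kept 13267. Between the genotypes, 102 genes differed (0.702% of the genes tested), 70 lower (0.482%) and 32 higher (0.22%) in Ahr-/- BMMs. The lower genes include Spint1, Gdf3 and some of the matrix proteases, chemokines, tubulins and cell cycle genes. The chemokine gene Ccl5 was higher. None of the chemokines and of the 7 cell cycle genes named below was called without Ahr-/- libraries 3 and 4. The higher genes include Cav1, Rab4a, Tspan33, the antigen presentation genes H2-Eb1, Ctss and H2-Q6, and the counts of Ahr itself. Of the 102 genes, 22 were called in every fit that left out 1 of these libraries. Spint1, Gdf3, Cav1, Rab4a, Tspan33 and H2-Q6 are among the 22, but H2-Eb1, Ctss and Ahr are not.

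Donor mice were 8 to 12 weeks old. Ahr+/+ donors were female C57BL/6JRj mice. Ahr-/- donors lack Ahr in all cells, and their line was bought as C57BL/6 and then backcrossed by the authors to the same C57BL/6JRj stock. Bone marrow cells were grown in medium containing M-CSF from fibroblast supernatant. Both groups then received the vehicle DMSO at 0.01% for 6 h and no heat-killed Salmonella Enteritidis (hk S.E.), and they are called resting here. Within a genotype, a replicate number was read as naming a mouse. The labels do not state this, and if libraries shared a mouse the p-values would measure only the spread between these samples, which may be technical. The other groups of the series differ in time (3 h), in hk S.E. or in an AhR ligand, and of these the resting libraries at 3 h and the libraries with DMSO and hk S.E. at 20 h serve as points of reference.

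The aryl hydrocarbon receptor (AhR) is a transcription factor that waits in the cytosol in a complex with HSP90 chaperones. When it binds a ligand it enters the nucleus, pairs with ARNT and binds DNA at short sites, the AhR response elements, where it induces enzymes of xenobiotic metabolism and the gene of its own repressor, AHRR. In macrophages it is known to modulate cytokine responses, and cells without any added ligand can still hold ligands from the medium or from tryptophan metabolism.

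Promoters of 2 genes are shown because both genes were lower in Ahr-/- BMMs, Ahrr as a classical AhR target and Spint1 as the gene with the smallest adjusted p. Each run is the RefSeq promoter window on GRCm38.p6, 250 bases before to 50 bases after the gene's start, written 5′ to 3′ on the gene's strand. Capitals mark the core of the AhR response element, GCGTG, or its reverse complement CACGC. The Ahrr window lies at chr13:74292282-74292581 on the minus strand and the Spint1 window at chr2:119237110-119237409 on the plus strand.
Ahrr: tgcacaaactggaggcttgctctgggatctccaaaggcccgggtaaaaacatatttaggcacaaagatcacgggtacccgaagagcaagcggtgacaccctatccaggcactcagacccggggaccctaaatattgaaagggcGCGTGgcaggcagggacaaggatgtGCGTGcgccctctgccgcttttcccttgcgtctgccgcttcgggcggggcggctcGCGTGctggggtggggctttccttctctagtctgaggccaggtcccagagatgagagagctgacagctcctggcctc
Spint1: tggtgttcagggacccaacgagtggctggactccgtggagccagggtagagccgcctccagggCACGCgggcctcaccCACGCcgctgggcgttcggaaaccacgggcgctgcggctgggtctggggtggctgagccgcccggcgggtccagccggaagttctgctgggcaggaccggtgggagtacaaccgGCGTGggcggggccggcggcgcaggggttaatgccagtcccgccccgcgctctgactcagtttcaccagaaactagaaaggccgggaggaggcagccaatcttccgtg

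Each window holds 3 such cores, all 3 on the gene's strand in Ahrr, and 1 on the gene's strand and 2 on the opposite one in Spint1. The core is short and common. Of the 70 lower genes, 54 were matched to a promoter window and 30 of these (55.6%) hold it on either strand. Of the 32 higher genes, 21 were matched and 8 (38.1%) hold it. Among all tested genes with a window the core stands in 5517 of 10014 (55.1%), and among all windows of the table in 10639 of 32851 (32.4%). A second motif of the receptor, GGGTGCAT for its pairing with RelB, stands in 0 of the 54 and 0 of the 21 windows and in 0.479% of the windows of tested genes. A match describes these letters only, and no binding was measured.

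Depth was uneven. Total counts on genes were 21347014 to 24423183 in Ahr+/+ replicates 1 to 3 and 233047331 in replicate 4, against 12152496 to 39798286 in the Ahr-/- libraries. Levels are therefore given as CPM, counts scaled so that all libraries have the same TMM-normalized total. When the deep library was thinned to 24420370 counts, 90 genes differed in place of 102, and 89 of the 102 were among them. All 8 libraries showed the macrophage markers at high level, for example Csf1r, the receptor of M-CSF, at 2062 to 2593 CPM, Adgre1 (F4/80) at 1015 to 1553 CPM and Itgam (CD11b) at 230 to 292 CPM. None of the 16 macrophage markers differed between the genotypes, and the summed CPM of the list was 30110 to 34140 in Ahr+/+ and 32840 to 39540 in Ahr-/- libraries.

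Ahr-/- libraries 3 and 4 form a pair apart from Ahr-/- libraries 1 and 2. Their log2 CPM correlated at 0.9955 with each other over the tested genes, against 0.9731 to 0.9832 with Ahr-/- libraries 1 and 2, which correlated at 0.9826. With the Ahr+/+ libraries, libraries 3 and 4 correlated at 0.9856 to 0.9892 and library 1 at 0.9865 to 0.9909. The lowest correlations were those of Ahr-/- library 2, the shallowest, at 0.9731 to 0.9826 with every other library. Pairs of Ahr+/+ libraries correlated at 0.9914 to 0.9935. Libraries 3 and 4 were no double deposit, since their counts differed by more than sampling noise. Their chi-square per degree of freedom, which rises with depth, was 4.80, the lowest of all pairs within a genotype. Pairs of Ahr+/+ libraries had 6.33 to 12.48 without the deep library and 19.4 to 27.84 with it. Ahr-/- libraries 1 and 2 had 14.79, and pairs across the split had 62.15 to 72.77. Whether libraries 3 and 4 share a source was not tested. Stromal cell markers moved with this split. The summed CPM of 10 such genes, 5 of them tested, was 0.802 to 1.53 in the Ahr+/+ libraries, 2.07 and 1.86 in Ahr-/- libraries 1 and 2, and 9.01 and 9.84 in libraries 3 and 4. Col1a1, the collagen I gene that defines fibroblasts and osteoblasts, stood at 0.432, 0.433, 3.23 and 3.54 CPM in Ahr-/- libraries 1 to 4 and at 0.209 to 0.357 CPM in Ahr+/+ libraries. Without libraries 3 and 4, 39 genes differed (24 lower, 15 higher), and without libraries 1 and 2, 79 did (42 lower, 37 higher). From the 102, 30 and 51 genes were among these. The part of this split in single results was not tested, and values without the libraries are given below for a number of the genes and lists.

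**Figure D1:**
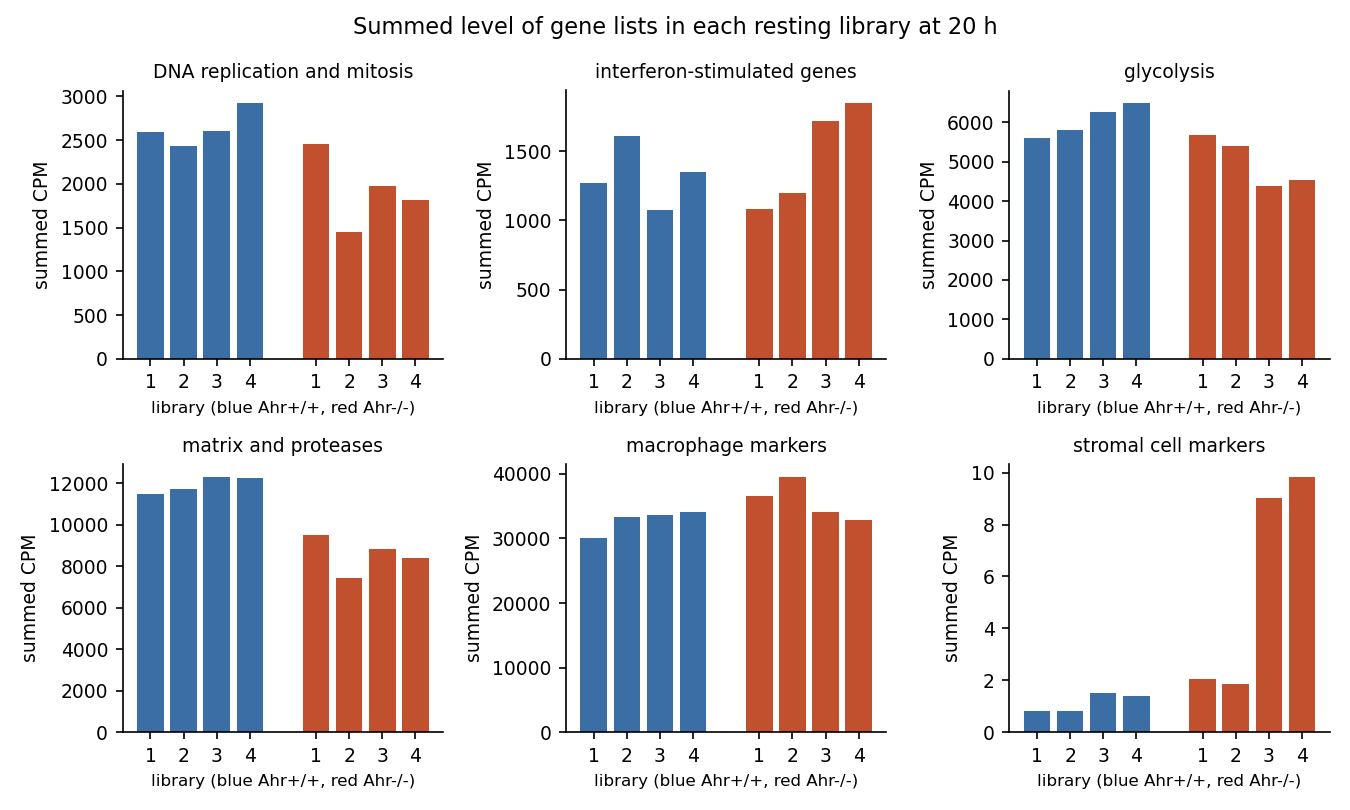
Summed CPM (vertical axes, linear and starting at 0) of 6 gene lists in each of the 8 resting libraries at 20 h, blue for Ahr+/+ and red for Ahr-/- replicates 1 to 4. The sums of matrix and protease genes are lower in all 4 Ahr-/- libraries, while interferon-stimulated genes, glycolysis genes and stromal cell markers separate Ahr-/- libraries 3 and 4 from libraries 1 and 2.

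For the whole comparison, 14537 genes were tested by the quasi-likelihood test of edgeR at an adjusted p of 0.01 (Benjamini-Hochberg), in a fit of all 64 libraries that estimates each gene's spread over 16 groups. That fit has no term for the mouse. Libraries read as coming from the same mouse were thus treated as independent, also in the tests of change, which do not use this pairing. In limma voom with the mouse as random effect, the estimated correlation within a mouse was 0.282. Among the 70 lower genes, all Ahr-/- libraries lay below all Ahr+/+ libraries for 66, which holds for 5.74% of all genes tested. Among the 32 higher genes, the groups did not overlap for 29, against 2.55% of all genes. The median absolute log2 fold change was 0.63 for lower and 1.00 for higher genes, and 19 and 16 of them differed by more than 2-fold. The median over all genes was -0.01. The fit of the 8 libraries alone called 5 genes, all lower (Spint1, Acp1, Gdf3, Il1rn and Tmem154), while DESeq2 on the same 8 libraries called 193. Leaving out any single library moved the number of calls by more than 1.5 times, to 44 to 67 without an Ahr+/+ library, to 54, 59 and 41 without Ahr-/- replicates 2, 3 and 4, and up to 160 without Ahr-/- replicate 1. In the 8 fits that each left out 1 of the libraries compared, 22 of the 102 genes were called every time.

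**Figure D2:**
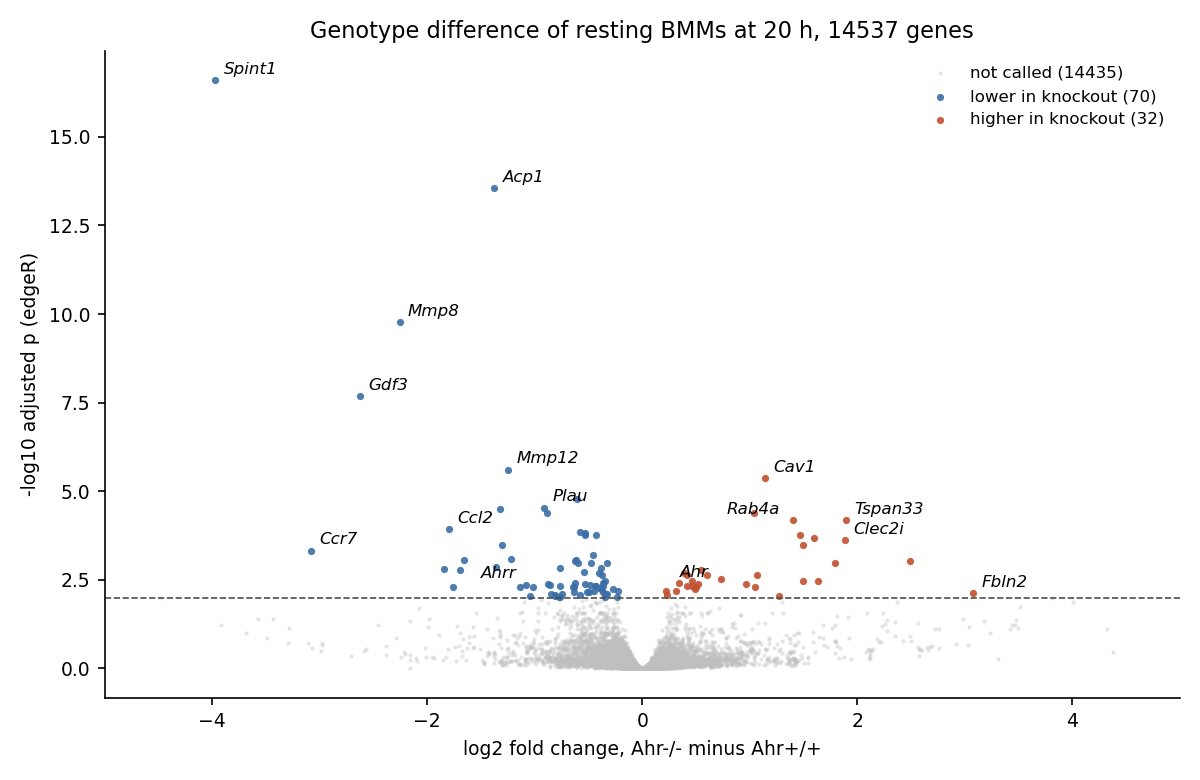
Each point is a gene, with the log2 fold change of Ahr-/- minus Ahr+/+ resting BMMs at 20 h on the horizontal axis and the -log10 of the adjusted p from edgeR on the vertical axis. The dashed line at 2 marks the threshold of 0.01, above which 70 genes lie on the lower (blue) and 32 on the higher side (red), and 1 gene that was not called lies outside the plotted range.

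The targeted gene was read first. Ahr (ENSMUSG00000019256.17, chromosome 12, 35497974 to 35535038 on GRCm38) stood at 2.62, 4.53, 4.72 and 3.34 CPM in Ahr+/+ replicates 1 to 4 and at 6.30, 5.44, 8.80 and 8.62 CPM in Ahr-/- replicates 1 to 4. Counts on the gene were thus higher in every Ahr-/- library than in any Ahr+/+ library. The fitted log2 fold change reached 0.97 (SE 0.20, adjusted p = 0.00407 in edgeR). A count sums reads over all exons of the gene, so it does not show whether the transcript encodes the receptor, and the deletion could not be read from these counts. Ahr was not called without Ahr-/- libraries 3 and 4, where the log2 fold change was 0.65, and was called without libraries 1 and 2, where it was 1.21.

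Of the 14 genes of the AhR complex and its partners, Ahr alone was called, and the median log2 fold change of the list was -0.03. Arnt, the DNA-binding partner, stood at 41.9 to 50.7 CPM in Ahr+/+ and 39.7 to 49.5 CPM in Ahr-/- libraries (log2 fold change -0.04, SE 0.06). The chaperones Hsp90ab1 and Hsp90aa1, the co-chaperone gene Ptges3, the kinase gene Src, the ubiquitin ligase subunits Cul4b and Ddb1, and the transcription factors Rela, Relb and Nfe2l2 had log2 fold changes between -0.26 and 0.27 with overlapping groups. Arnt2, a paralog of Arnt, was at 0.349 CPM or less in all 8 libraries.

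AhR target genes were mostly at low level or did not pass the test. Of 20 such genes, 11 had enough reads to be tested. Among the 11, 2 were lower in Ahr-/- BMMs (Ahrr and Slc7a5), where 0.482% of all genes were, and the median log2 fold change was -0.24. Cyp1a1, the monooxygenase gene that AhR ligands induce most, had 0 counts in all Ahr+/+ libraries together and 1 count in the Ahr-/- ones, and Cyp1b1 had 17 and 8 counts. Neither was tested.

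Ahrr, the gene of the repressor that competes with AhR for ARNT, stood at 5.34, 5.91, 4.37 and 5.17 CPM in Ahr+/+ and at 2.47, 2.23, 3.09 and 3.35 CPM in Ahr-/- libraries. All Ahr-/- libraries lay below all Ahr+/+ ones. The fitted log2 fold change reached -0.88 (SE 0.18, adjusted p = 0.00409 in edgeR), a 1.84-fold difference. Slc7a5, a subunit of the transporter that carries tryptophan and kynurenine, stood at 8.75, 6.50, 7.53 and 7.80 CPM in Ahr+/+ and at 4.39, 2.78, 5.41 and 4.93 CPM in Ahr-/- libraries. It was lower in every Ahr-/- library, by 0.76 on the log2 scale (SE 0.18, adjusted p = 0.00943 in edgeR). Nqo1, the quinone reductase gene, stood at 2.75, 3.11, 2.84 and 2.85 CPM in Ahr+/+ and at 1.45, 1.55, 2.40 and 1.92 CPM in Ahr-/- libraries, without overlap, but did not pass the test (log2 fold change -0.63, SE 0.26, adjusted p = 0.265 in edgeR). Without Ahr-/- libraries 3 and 4 Ahrr was called and Slc7a5 was not, and without libraries 1 and 2 neither was. Without libraries 3 and 4 the log2 fold changes were -1.13 for Ahrr and -1.05 for Slc7a5, and without libraries 1 and 2 they were -0.69 and -0.57. For Tiparp, another classical target, the groups overlapped at 13.7 to 16.9 and 10.6 to 20.2 CPM (log2 fold change 0.00, SE 0.27). The others tested were Alas1 (log2 fold change -0.24), Lpar6 (0.13), Gsta3 (-0.18) and Ugt1a6a (0.37), and Ugt1a6b, Ido2 and Serpinb2, which were at 0.314 CPM or less in every library. Their groups overlapped.

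Spint1 (chromosome 2, 119237362 to 119249527) showed the widest gap. It encodes a membrane-bound inhibitor of serine proteases such as the activator of hepatocyte growth factor. Its level was 5.23, 5.25, 5.43 and 3.67 CPM in Ahr+/+ replicates 1 to 4, against 0.216, 0.371, 0.392 and 0.266 CPM in Ahr-/- replicates 1 to 4. Ahr-/- BMMs thus held 15.7-fold less, with no Ahr-/- library near the Ahr+/+ range. The fitted log2 fold change reached -3.97 (SE 0.25, adjusted p = 2.51e-17 in edgeR).

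Gdf3, which encodes a growth factor of the TGF-beta family made by macrophages, was at 10.8, 11.8, 17 and 22.5 CPM in Ahr+/+ and at 3.12, 2.85, 2.03 and 2.27 CPM in Ahr-/- libraries. Its groups lay far apart, with a log2 fold change of -2.62 (SE 0.30, adjusted p = 2.03e-08 in edgeR). Spint1, Gdf3 and Acp1, described with the genes near Ahr, were called in 20 of 21 alternative fits, the most of any of the 102 genes. The exception was the fit of the 8 libraries with a replicate block, which called 0 genes and in which 1384 genes were at an unadjusted p below 0.05.

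Of 26 genes of the matrix and of matrix proteases, 4 were lower and 0 higher, where 0.482% and 0.22% of all genes were. The median of the list was -0.11, and 22 of its members were not called. The 4 were Mmp8, Mmp12, Mmp13 and Plau. Mmp8, a collagenase that is otherwise known from neutrophils, stood at 12.3, 11.7, 13.0 and 8.74 CPM in Ahr+/+ and at 3.86, 2.17, 1.82 and 1.75 CPM in Ahr-/- libraries. The groups did not overlap (log2 fold change -2.26, SE 0.22, adjusted p = 1.70e-10 in edgeR). Mmp12, the elastase of macrophages, was the most abundant of the 4 in CPM, at 417, 490, 628 and 426 CPM in Ahr+/+ and 277, 173, 207 and 170 CPM in Ahr-/- libraries.

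Mmp12 was 2.37-fold lower in Ahr-/- BMMs (log2 fold change -1.25, SE 0.17, adjusted p = 2.44e-06 in edgeR), again without overlap. Mmp13, a collagenase, ran from 5.75 to 9.94 CPM in Ahr+/+ and from 1.79 to 3.43 CPM in Ahr-/- libraries (log2 fold change -1.3, SE 0.23). Plau, the urokinase that activates plasminogen, stood at 232, 175, 261 and 226 CPM against 161, 83.3, 124 and 105 CPM. Its Ahr-/- library 1 came closest to the Ahr+/+ range, with a log2 fold change of -0.92 (SE 0.14, adjusted p = 2.89e-05 in edgeR). The 4 genes were also called without Ahr-/- libraries 3 and 4, and all but Mmp13 without libraries 1 and 2. Other neutrophil and granulocyte precursor markers than Mmp8 were not called, and the list summed to 25.9 to 49.9 CPM in Ahr+/+ libraries, 76.6 and 43.4 CPM in Ahr-/- libraries 1 and 2, and 20.3 and 21.5 CPM in libraries 3 and 4.

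Among 34 inflammatory cytokines and chemokines, 4 were lower (Ccl2, Ccl7, Il1rn and Ccl4) and 1 was higher (Ccl5), where 0.482% and 0.22% of all genes were. Of the 34, 22 passed the filter when it was set on these 8 libraries alone. Ccl2, the main attractant of monocytes, stood at 18.2, 15.9, 11.9 and 19.2 CPM in Ahr+/+ and at 9.18, 1.92, 4.38 and 2.99 CPM in Ahr-/- libraries. Every Ahr-/- library was below every Ahr+/+ one, with the widest spread among the Ahr-/- libraries (log2 fold change -1.80, SE 0.29, adjusted p = 1.19e-04 in edgeR). Ccl7, its neighbour on chromosome 11 with a like role, stood at 7.81, 7.38, 6.00 and 8.28 CPM against 3.77, 0.928, 2.93 and 1.47 CPM. It was lower without overlap (log2 fold change -1.66, SE 0.31, adjusted p = 8.68e-04 in edgeR).

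Il1rn, whose product blocks the interleukin-1 receptor, was more even within the groups, at 42.3, 51.2, 48.5 and 42.2 CPM in Ahr+/+ and 20.0, 14.2, 19.9 and 17.2 CPM in Ahr-/- libraries. It was 2.57-fold lower in Ahr-/- BMMs (log2 fold change -1.36, SE 0.26, adjusted p = 0.00137 in edgeR). Ccl4, a chemokine gene of macrophages, was lower by 0.76 on the log2 scale (SE 0.16), at 15.5 to 20.3 CPM against 7.36 to 14.6 CPM. Ccl5, which attracts T cells and monocytes, rose by 1.05 (SE 0.23), but its groups overlapped: Ahr-/- libraries 1 to 4 stood at 5.56, 9.77, 12.9 and 14 CPM and the Ahr+/+ libraries at 4.62 to 5.78 CPM. Without Ahr-/- libraries 3 and 4, none of the 5 was called, and without libraries 1 and 2, Ccl2, Ccl7 and Ccl5 were. The log2 fold changes without libraries 3 and 4 were -1.47 for Ccl2, -1.52 for Ccl7, -1.42 for Il1rn, -0.69 for Ccl4 and 0.54 for Ccl5. Cytokines of the acute response were not called at rest, with Tnf at 17.6 to 20.0 and 16 to 22.5 CPM (log2 fold change 0.03, SE 0.12), Il1b at 4.15 to 7.78 and 5.99 to 8.29 CPM (0.36, SE 0.28) and Il6 at 0.0761 CPM or less in every library.

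Receptors and surface proteins of macrophages were also among the lower genes. Ccr7, which guides cells to lymph nodes, was low throughout, at 0.488, 0.503, 0.710 and 1.11 CPM in Ahr+/+ and 0.154, 0, 0.0691 and 0.0951 CPM in Ahr-/- libraries, without overlap (adjusted p = 4.72e-04 in edgeR). Ccr1, a receptor for CCL5 and related chemokines, stood at 76.3 to 108 CPM against 46.0 to 55.9 CPM (log2 fold change -0.81, SE 0.18). Gpnmb, a glycoprotein of phagocytic macrophages and the most abundant of these in CPM, stood at 4252 to 4994 CPM in Ahr+/+ and 2513 to 3012 CPM in Ahr-/- libraries (log2 fold change -0.74, SE 0.17). In none of the 3 did the groups overlap, and Ccr7 is the 1 called gene of 6 tested dendritic cell markers. Ccr1 and Gpnmb were called in 0 of the 8 fits that left out 1 library and in neither fit without a pair of Ahr-/- libraries. Their log2 fold changes in the latter were -0.90 and -0.72 for Ccr1 and -0.65 and -0.84 for Gpnmb.

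Of 20 tested scavenger and phagocytic receptors, 2 were lower and 1 higher, where 0.482% and 0.22% of all genes were. Mrc1, the mannose receptor, stood at 178, 230, 198 and 190 CPM in Ahr+/+ and at 114, 99.1, 123 and 106 CPM in Ahr-/- libraries, 1.80-fold lower without overlap (log2 fold change -0.85, SE 0.19, adjusted p = 0.00773 in edgeR). Scarb1, a receptor of high-density lipoprotein, was lower by 0.39 on the log2 scale (SE 0.09), at 74.1 to 88.9 against 59.7 to 70.8 CPM. Cd5l, a secreted scavenger protein of macrophages, was higher, at 32.8 to 52.4 against 58.6 to 89.0 CPM (log2 fold change 0.73, SE 0.15). Mrc1 is also the 1 gene called among 12 tested genes of alternative activation, whose median was 0.03. Mrc1 was called in 0 of the 8 fits that left out 1 library and in neither fit without a pair of Ahr-/- libraries, with log2 fold changes of -0.90 without libraries 3 and 4 and -0.80 without libraries 1 and 2. Scarb1 was called in neither of the latter, and Cd5l (0.60) not without libraries 3 and 4.

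Lipid mediator and sterol enzymes were represented by single genes. Ch25h, which makes 25-hydroxycholesterol, stood at 1.22, 1.41, 1.14 and 1.24 CPM in Ahr+/+ and at 0.587, 0.0619, 0.461 and 0.304 CPM in Ahr-/- libraries. It was lower in each, with Ahr-/- library 2 lowest (log2 fold change -1.69, SE 0.33, adjusted p = 0.00168 in edgeR). Alox5, the 5-lipoxygenase gene that starts leukotriene synthesis, ran from 4.93 to 6.92 CPM in Ahr+/+ and from 2.40 to 3.96 CPM in Ahr-/- libraries (log2 fold change -1.04, SE 0.24). Neither was called without Ahr-/- libraries 3 and 4, with log2 fold changes of -1.64 for Ch25h and -0.77 for Alox5. Of 23 tested genes of sterol synthesis and 19 of lipid uptake and LXR targets, none was called, with medians of -0.06 and 0.00.

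Further genes with large differences were Slco4a1, an organic anion transporter gene, at 2.30 to 3.39 against 0.704 to 1.47 CPM (log2 fold change -1.32, SE 0.20), and Acpp, a phosphatase gene, at 0.872 to 2.01 against 0.266 to 0.649 CPM (-1.84, SE 0.36). Tmem154, a membrane protein gene, stood at 26.6 to 31.9 against 11.4 to 14.8 CPM (log2 fold change -1.08, SE 0.23). Acap1, which takes part in endosome recycling, stood at 6.10 to 7.67 against 1.73 to 4.91 CPM (-1.22, SE 0.23). In none of the 4 did the groups overlap. Without Ahr-/- libraries 3 and 4, Acap1 (-0.79), Acpp (-1.32) and Tmem154 (-0.94) were not called, and without libraries 1 and 2 Acap1 (-1.76) and Acpp (-2.28) were.

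Genes of proliferating cells ran lower as a list without single members reaching the threshold. Of 30 genes of DNA replication and mitosis, 29 had a negative log2 fold change, where 51.4% of all genes did. At an unadjusted p below 0.05, 25 were lower, where 7.99% of all genes were, and 0 were higher, where 4.49% of all genes were. Of the 30, 0 were called at the threshold of 0.01 in the edgeR fit, with a lowest adjusted p of 0.0136 for Mcm2. The median of the list was -0.49. It was -0.46 in the fit of the 8 libraries alone and -0.57 with the identifier series, described below, as a covariate.

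Mki67, the proliferation marker Ki-67, stood at 246, 244, 268 and 294 CPM in Ahr+/+ and at 267, 123, 177 and 152 CPM in Ahr-/- libraries. Ahr-/- library 1 thus lay within the Ahr+/+ range and the other 3 below it (log2 fold change -0.55, SE 0.18). Pcna, the replication clamp, stood at 387, 357, 420 and 432 CPM against 352, 220, 331 and 312 CPM, just without overlap (log2 fold change -0.39, SE 0.10). The same order held for the sum over the list, at 2438 to 2921 CPM in Ahr+/+ libraries, 2455 CPM in Ahr-/- library 1 and 1455 to 1975 CPM in Ahr-/- libraries 2 to 4. Without Ahr-/- libraries 3 and 4 the median was -0.40 and without libraries 1 and 2 it was -0.52. In bulk RNA, fewer cells in the cycle and less of these RNAs per cell cannot be told apart.

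Called genes outside that list touch the same processes, and the following were chosen after their values were seen. Foxm1, the transcription factor of mitotic genes, stood at 46.9, 46.8, 41.2 and 49.3 CPM in Ahr+/+ and 37.6, 22.6, 24.6 and 23.3 CPM in Ahr-/- libraries, without overlap (log2 fold change -0.77, SE 0.15, adjusted p = 0.00151 in edgeR). With Espl1 (separase), Ccnf, Cdc25a, Hjurp, Cdk2 and Fanca, 7 called genes of cell division and genome repair had log2 fold changes of -0.78 to -0.33. None of the 7 was called without Ahr-/- libraries 3 and 4, at -0.61 for Foxm1. Tubulins were lower too, with Tuba1b at 265 to 308 against 148 to 222 CPM (log2 fold change -0.61, SE 0.09, adjusted p = 1.61e-05 in edgeR) and Tubb5 at 752 to 892 against 432 to 624 CPM (-0.58, SE 0.10). Tubb4b and Tuba1c were called with overlapping ranges or nearly so, by 0.48 and 0.38 lower on the log2 scale, and tubulin genes share much of their sequence, so that reads may be split between them.

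Besides Slc7a5, the cationic amino acid transporters Slc7a1 (20.3 to 24.4 against 10.8 to 15.8 CPM) and Slc7a2 (6.00 to 7.5 against 3.40 to 4.70 CPM) were lower, as were the tRNA synthetases Vars and Cars. These 5 genes had log2 fold changes of -0.76 to -0.40, all without overlap. They were put together after their values were seen, so that no pattern of the process follows from them. Mthfd2, a mitochondrial enzyme of the folate cycle, was the 1 called gene of 21 among genes answering unfolded proteins and amino acid shortage, at 19.4 to 23.1 against 12.5 to 16.4 CPM (log2 fold change -0.53, SE 0.09, adjusted p = 1.67e-04 in edgeR). The median of that list was -0.09. Of 20 glycolysis genes, 19 had a negative log2 fold change, where 51.4% of all genes did, and 0 were called in the edgeR fit. At an unadjusted p below 0.05, 6 were lower, where 7.99% of all genes were. The sum of the list was 5603 to 6481 CPM in Ahr+/+ libraries and 5674, 5393, 4394 and 4525 CPM in Ahr-/- libraries 1 to 4. The median log2 fold change was -0.26. That median was -0.11 without Ahr-/- libraries 3 and 4 and -0.45 without libraries 1 and 2.

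**Figure D3:**
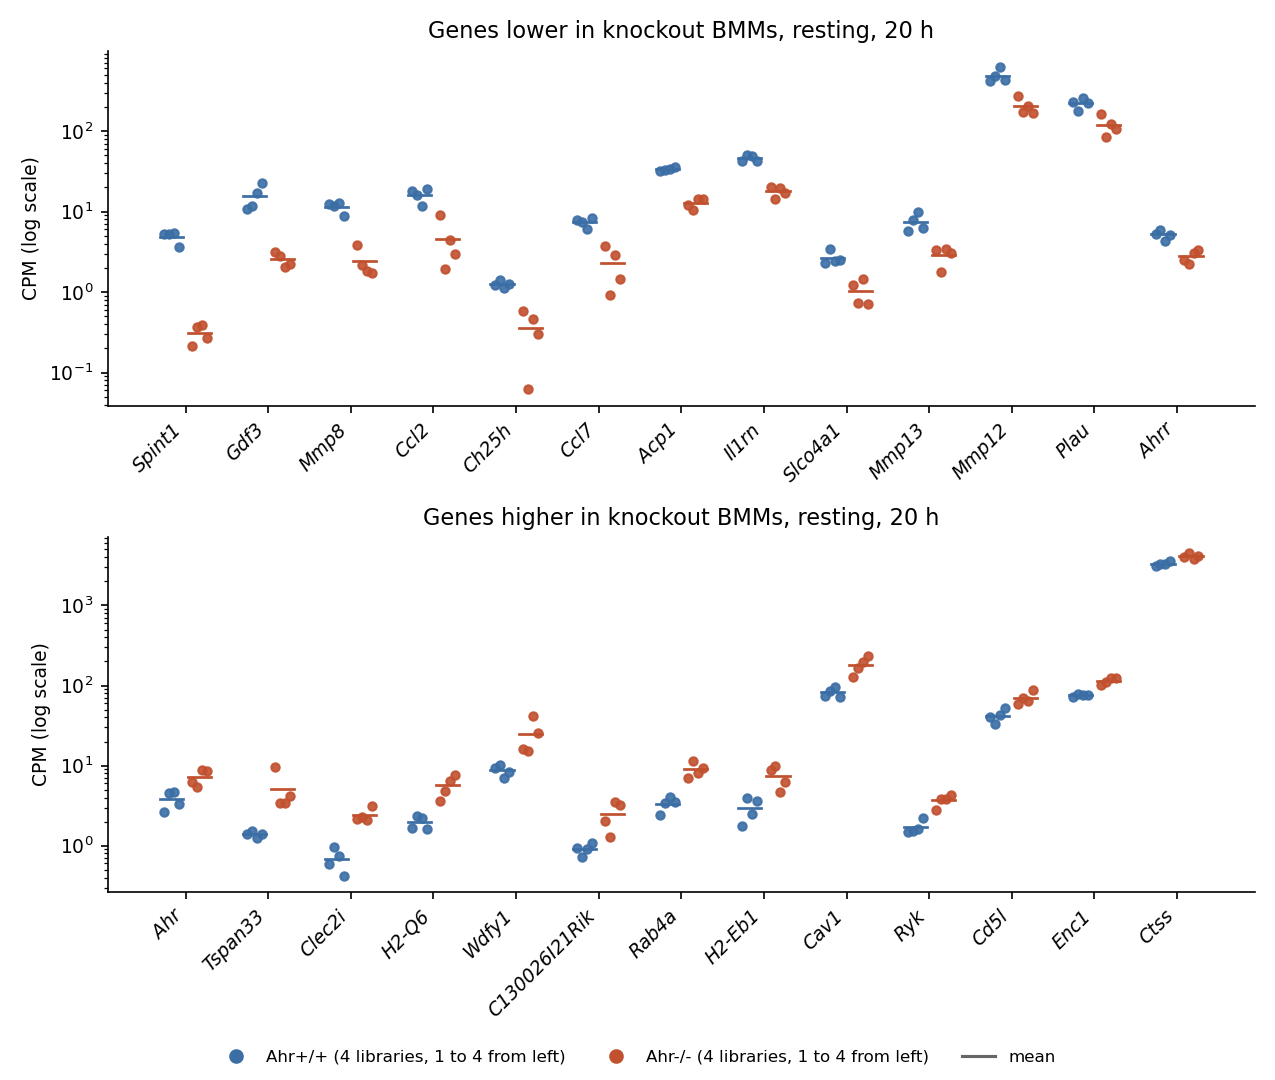
CPM on a log axis of 13 lower (top) and 13 higher genes (bottom) in the 4 Ahr+/+ (blue) and 4 Ahr-/- (red) resting libraries at 20 h, with lines at the group means. The groups do not overlap for any gene shown, which was a condition for naming most of them. Called genes with overlap, such as Ccl5, are not shown. Levels run from Spint1 at 3.67 CPM or more against 0.392 CPM or less to Ctss at 3104 to 3638 against 3839 to 4488 CPM.

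Genes higher in Ahr-/- BMMs were fewer. Cav1, the main protein of caveolae, stood at 74.6, 86.6, 96.0 and 71.7 CPM in Ahr+/+ and at 128, 167, 199 and 232 CPM in Ahr-/- libraries. It was higher in every Ahr-/- library, 2.21-fold on average (log2 fold change 1.15, SE 0.16, adjusted p = 4.20e-06 in edgeR). Rab4a, a small GTPase gene of early endosomes, stood at 2.44, 3.39, 4.08 and 3.52 CPM against 7.01, 11.3, 8.04 and 9.48 CPM. Its groups did not overlap (log2 fold change 1.41, SE 0.22, adjusted p = 6.66e-05 in edgeR).

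Tspan33, a tetraspanin gene, was at 1.40, 1.51, 1.24 and 1.40 CPM in Ahr+/+ and at 9.58, 3.40, 3.43 and 4.22 CPM in Ahr-/- libraries. Ahr-/- library 1 was far above the other 3, and all 4 lay above the Ahr+/+ range (log2 fold change 1.90, SE 0.30). Clec2i, a ligand gene of natural killer cell receptors, stood at 0.421 to 0.974 against 2.07 to 3.10 CPM (log2 fold change 1.89, SE 0.32), and Wdfy1, whose product lies on early endosomes, at 7.06 to 10.3 against 15 to 41.2 CPM (1.49, SE 0.31). In Wdfy1, Ahr-/- library 3 was the highest, and its log2 fold change was 0.82 without libraries 3 and 4, where it was not called, and 1.93 without libraries 1 and 2. Wdfy1 was called in 3 of the 8 fits that left out 1 library. Clec2i was not called without libraries 3 and 4 either, at a log2 fold change of 1.76.

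Other higher genes with separate groups were Ryk, a Wnt co-receptor gene, at 1.5 to 2.21 against 2.78 to 4.24 CPM, and Enc1, an actin-binding protein gene, at 70.9 to 79.2 against 102 to 123 CPM. Arl5c, a small GTPase gene, stood at 30.2 to 38.2 against 43.3 to 61.7 CPM, and Carmil1, a regulator of actin capping, at 13.2 to 16.5 against 17.4 to 22.6 CPM. Their log2 fold changes were 1.06, 0.60, 0.55 and 0.52 in that order. Gm6472, a pseudogene on chromosome X, was at 17.8 to 23.9 against 37.3 to 53.9 CPM (log2 fold change 1.04, SE 0.16), and C130026I21Rik, a member of a family of like copies on chromosome 1, at 0.723 to 1.08 against 1.3 to 3.52 CPM (1.47, SE 0.25). For the last pair, reads may be shared with other copies, so both are uncertain. Ryk (0.89), Enc1 (0.50), Carmil1 (0.41) and C130026I21Rik (0.85) were not called without Ahr-/- libraries 3 and 4, with the log2 fold changes given in brackets, and without libraries 1 and 2 Arl5c (0.42) was not.

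Antigen presentation genes were among the higher ones. Of 11 tested genes of MHC class II presentation, 2 were higher, H2-Eb1 and Ctss, and 0 lower, where 0.22% and 0.482% of all genes were. The median log2 fold change was 0.31, with members from -1.44 to 1.27. At an unadjusted p below 0.05, 3 were higher and 1 lower. In the 8 fits that each left out 1 library, H2-Eb1 was called in 1 and Ctss in 3. H2-Eb1, a class II beta chain, stood at 1.74, 3.96, 2.48 and 3.64 CPM in Ahr+/+ and at 8.93, 9.90, 4.63 and 6.20 CPM in Ahr-/- libraries. All Ahr-/- libraries were above, with libraries 1 and 2 highest (log2 fold change 1.27, SE 0.29, adjusted p = 0.00880 in edgeR).

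Ctss, the cathepsin that trims the invariant chain, stood at 3104, 3295, 3272 and 3638 CPM in Ahr+/+ and at 4085, 4488, 3839 and 4121 CPM in Ahr-/- libraries. This is a 1.24-fold difference without overlap (log2 fold change 0.31, SE 0.07, adjusted p = 0.00639 in edgeR). Without Ahr-/- libraries 1 and 2 the median of the class II list was -0.06 and 0 of its genes were called in that edgeR fit. H2-Q6, a class Ib gene in a cluster of like copies, stood at 1.61 to 2.33 against 3.62 to 7.69 CPM (log2 fold change 1.6, SE 0.27), and reads may be split between its copies. H2-Q6 had a log2 fold change of 1.12 without Ahr-/- libraries 3 and 4 and was not called there.

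Interferon-stimulated genes showed how far the Ahr-/- libraries differ among themselves. Of 43 tested, 39 had a positive log2 fold change (48.2% of all genes did) with a median of 0.14, and 0 passed the edgeR test, either at 0.01 or at an unadjusted p below 0.05. Their sum was 1076 to 1610 CPM in Ahr+/+ libraries, 1081 and 1197 CPM in Ahr-/- libraries 1 and 2, and 1720 and 1846 CPM in libraries 3 and 4. Without libraries 3 and 4 the median was -0.24 with 39 of 43 negative, and without libraries 1 and 2 it was 0.42 with 1 negative. No direction is therefore given for this list.

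No gene was called in the lists of NRF2 antioxidant genes (15 tested), monocyte markers (9), lymphocyte markers (2), osteoclast markers (8), endothelial markers (4), erythroid and megakaryocyte markers (3), mast cell and basophil markers (1), cytokine receptors (29), pattern recognition receptors (21), complement genes (16), integrins and adhesion genes (22) and circadian clock genes (17). In the lists of tryptophan and kynurenine enzymes (12 tested) and of lysosomal proteases and V-ATPase (29), Slc7a5 and Ctss, described above, were the only calls. Mast cell and basophil markers summed to 0.309 CPM or less in every library and lymphocyte markers to 5.82 to 8.93 CPM. Xist was present in all 8 libraries at 281 to 508 CPM, and the 4 Y-linked genes of the list had 1 count in all.

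**Figure D4:**
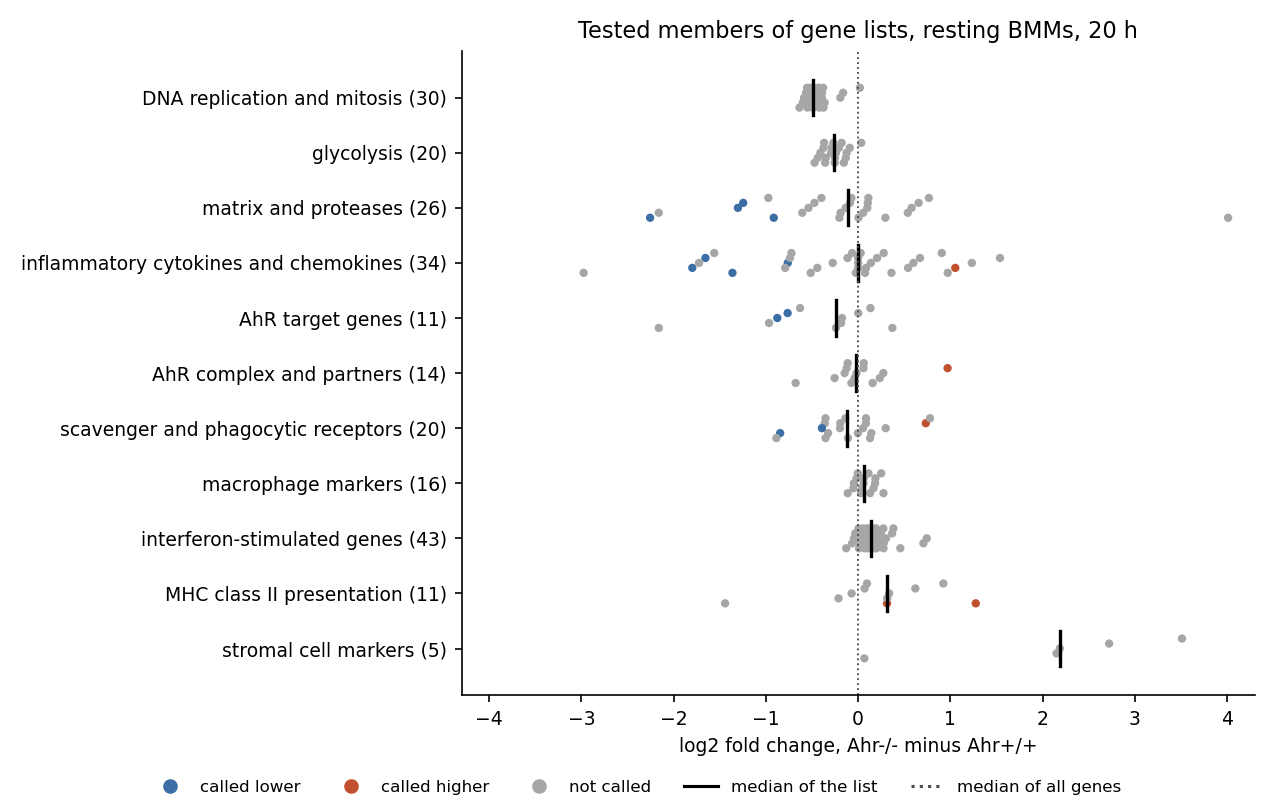
Log2 fold changes of Ahr-/- minus Ahr+/+ resting BMMs at 20 h (horizontal axis) for the tested members of 11 gene lists, with the number tested in brackets; points are called lower (blue), called higher (red) or not called (grey), and black bars are list medians. The median is -0.49 for DNA replication and mitosis and -0.26 for glycolysis, while the called matrix and protease genes stand apart from a list whose median is -0.11.

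Genes near Ahr are given apart, since a chromosome that carries a knockout allele can keep sequence of the strain the allele was made in around it. Within 20 Mb of Ahr, 4 of 124 tested genes were called (3.23%), against 1 of 401 (0.249%) on the rest of chromosome 12 and 97 of 14012 (0.692%) elsewhere. The 4 and the 124 include Ahr, the targeted gene, which is in this window by definition. Besides Ahr the called genes were Acp1, Hdac9 and Scin. Acp1 (chromosome 12, 30893326 to 30911589, 4586000 bases from Ahr), a low-weight phosphatase gene, stood at 32, 32.5, 33.4 and 35.8 CPM in Ahr+/+ and at 12.1, 10.4, 14.5 and 14.3 CPM in Ahr-/- libraries. The groups were even and far apart (log2 fold change -1.37, SE 0.11, adjusted p = 2.85e-14 in edgeR).

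Hdac9, a histone deacetylase gene 580900 bases from Ahr, stood at 16.2, 13.1, 16.1 and 13.5 CPM in Ahr+/+ and at 7.45, 4.58, 10.8 and 9.04 CPM in Ahr-/- libraries, without overlap (log2 fold change -0.86, SE 0.18). Scin, the gene of the actin-severing protein scinderin 4525000 bases away, was at 0.426 to 1.05 against 0.115 to 0.557 CPM with overlap (-1.76, SE 0.38). Scin (-1.10) was not called without Ahr-/- libraries 3 and 4, and without libraries 1 and 2 Hdac9 (-0.57) was not. Whether these differences follow from the receptor or from sequence linked to the deleted gene cannot be told apart with 1 knockout line. Of 5 tested genes known to differ between C57BL/6 substrains, none was called. Nnt stood at 0.279 to 0.566 CPM in Ahr+/+ libraries and at 0.649, 1.61, 0.553 and 0.552 CPM in Ahr-/- libraries, and Cyfip2 at 57.3 to 73.3 against 50.5 to 55.1 CPM (log2 fold change -0.32, SE 0.12, adjusted p = 0.203 in edgeR), while the groups of Btaf1, Ide and Fgfbp3 overlapped.

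The difference at rest was then set beside that at 3 h, which uses other libraries, read as coming from the same mice. At 3 h, 176 genes were called (1.21% of those tested), 141 lower and 35 higher. Of the 102 genes called at 20 h, 50 were also called at 3 h, all in the same direction (34 lower, 16 higher), which is 49.0% of the genes called at 20 h and 28.4% of those called at 3 h. The sign was the same for 101 of 102. A test of the change of the genotype difference between 3 h and 20 h called 0 genes with edgeR, and 444 genes (3.05%) were at an unadjusted p below 0.05. A difference particular to 20 h was thus not shown for any gene.

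Spint1 was already at 5.53 against 0.299 CPM on average at 3 h (log2 fold change -4.21). Mmp8 differed by -3.42 at 3 h and -2.26 at 20 h, and its mean in Ahr+/+ BMMs was 26.5 CPM at 3 h and 11.4 CPM at 20 h. Slc7a5 had a log2 fold change of 0.00 at 3 h and -0.76 at 20 h, with a change of -0.77 (SE 0.25) that did not pass the test. For DNA replication and mitosis the median was -0.77 at 3 h, with 17 of 30 genes called lower there and 0 at 20 h. Of all genes, 0.97% were called lower at 3 h and 0.482% at 20 h.

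With DMSO and hk S.E. at 20 h, the genotypes differed in 1811 genes (12.5% of those tested), 1075 lower (7.39%) and 736 higher (5.06%). In these libraries genotype coincides with the identifier series described below, so the effects of both cannot be told apart. This limit also holds for the changes between rest and hk S.E. Of the 102 genes called at rest, 34 were called there in the same direction and 5 in the opposite one (Slc20a1, Myo7a, Espl1, Hjurp and Cs), and the sign was the same for 69. The test of the change of the genotype difference called 641 genes (4.41%), and 40 of the 102 were among them, of which 8 had the larger difference with hk S.E.

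Of the 4 proteases called at rest, the difference of Mmp12 and Plau changed, while the change of Mmp8 (-1.06) and Mmp13 (0.78) did not pass the test. With hk S.E., 6 of the 26 matrix and protease genes were called lower, where 7.39% of all genes were. Mmp12 had a log2 fold change of -0.13 with hk S.E., at means of 221.2 and 202.5 CPM, and Plau one of 0.02 at means of 5.106 and 5.105 CPM. Tspan33 (-0.11), H2-Q6 (-0.10), C130026I21Rik (-0.25) and H2-Eb1 (-0.29) had the log2 fold changes given in brackets with hk S.E., and their change passed the test for each, as it did for Slco4a1, Arl5c, Mthfd2 and Ctss. Tuba1b and Tubb5, lower at rest, had log2 fold changes of 0.30 and 0.27 with hk S.E., and Foxm1 had 0.83.

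Other differences were larger with hk S.E. Ahrr differed by -2.91 with hk S.E. and by -0.88 at rest (change -2.03, SE 0.28, adjusted p = 1.95e-06 in edgeR), at means of 5.63 and 0.738 CPM with hk S.E. Rab4a differed by 3.68 and by 1.41 (change 2.27, SE 0.38, adjusted p = 3.83e-05 in edgeR). Scin and Hdac9 differed by -7.17 and -2.66 with hk S.E., and Gpnmb by -1.97.

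For some of the widest differences at rest, the change with hk S.E. did not pass the test. The change was -0.35 (SE 0.41) for Spint1, 0.03 (SE 0.15) for Acp1, -0.65 (SE 0.47) for Gdf3 and 0.23 (SE 0.36) for Il1rn, the last with means of 1457 and 663 CPM under hk S.E. Among the genes with the smallest p in the test of the change, Plin2, Cd300c2, Atf3, Cytip and Serpinb6b had log2 fold changes between -0.00 and 0.16 at rest and between -3.23 and -0.76 with hk S.E. They encode a lipid droplet protein, a CD300 family receptor, a stress transcription factor, an adhesion regulator and a serpin, and none of them was called at rest.

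**Figure D5:**
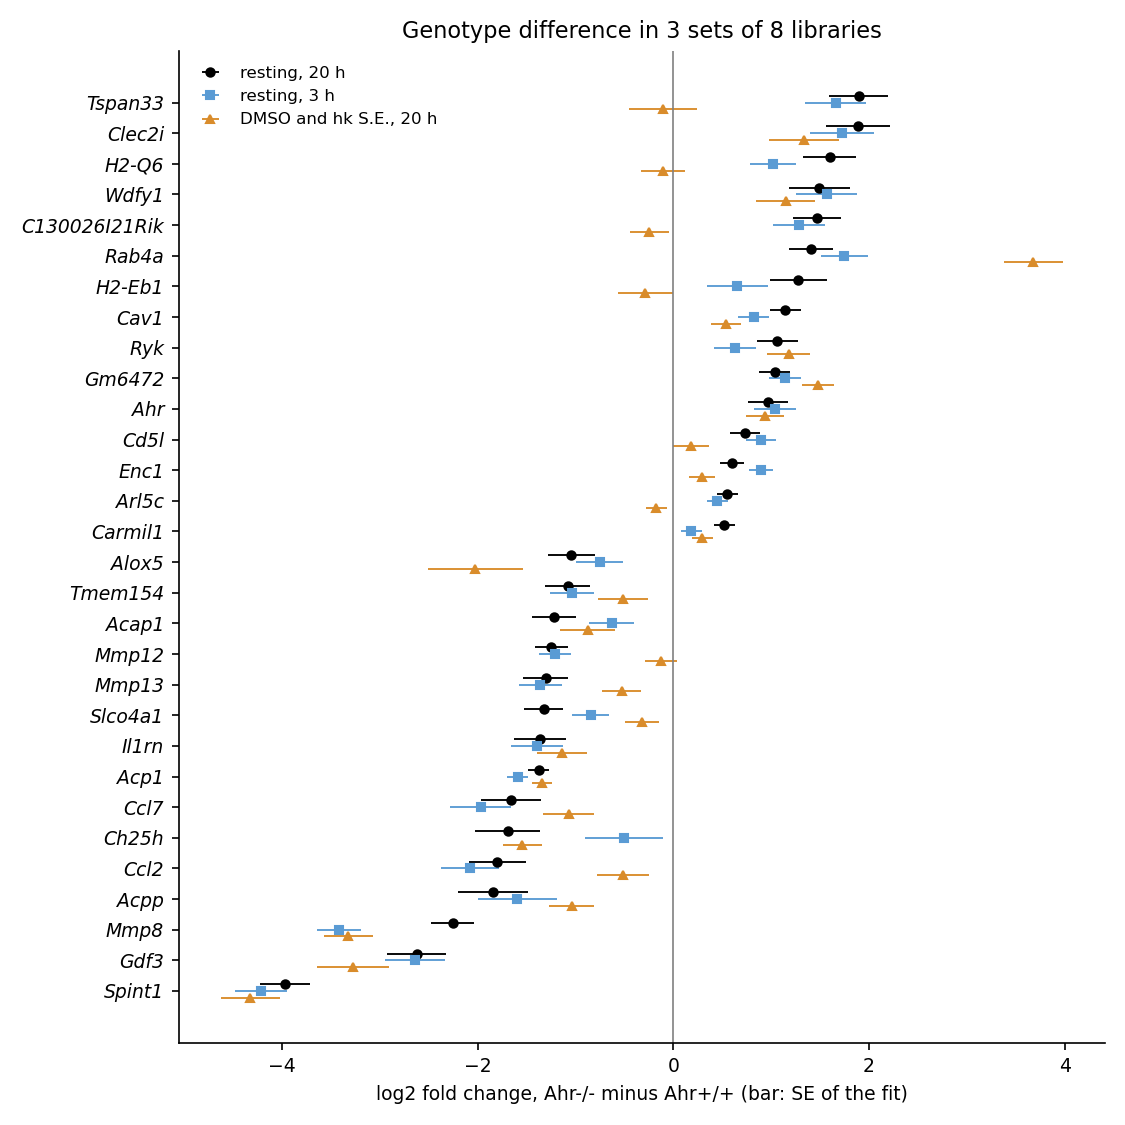
Log2 fold change of Ahr-/- minus Ahr+/+ BMMs with the SE of the fit for 15 higher and 15 lower genes, in resting libraries at 20 h (black circles) and 3 h (blue squares) and with DMSO and hk S.E. at 20 h (orange triangles), 8 libraries each. Tspan33, H2-Q6, C130026I21Rik, H2-Eb1 and Mmp12 lie near 0 with hk S.E. and Rab4a reaches 3.68.

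The resting libraries at 20 h carry identifiers of 3 number series. All 4 Ahr-/- libraries and Ahr+/+ replicate 1 belong to the same series, Ahr+/+ replicate 2 to another and Ahr+/+ replicates 3 and 4 to the last. What a series stands for is not given in the sources used here. Ahr+/+ replicate 2 is the only library of its series among all 64, so its series as a covariate takes up that library. The fit with the series thus rests on the other Ahr+/+ libraries in this comparison. Leaving out Ahr+/+ replicate 2 with no covariate gave 65 calls. With the series as a covariate over all 64 libraries, 36 genes were called (20 lower, 16 higher), 28 of them among the 102, including Spint1, Gdf3, Acp1, Mmp8, Mmp12, Plau, Ccl2, Ccl7, Ccl4, Il1rn, Cav1 and Rab4a but not Ahr, Ahrr or Slc7a5. The differences of the last 3 stayed about as large in that fit, with log2 fold changes of 1.01 for Ahr, -1.0 for Ahrr and -0.70 for Slc7a5. With DMSO and hk S.E. at 20 h, all Ahr+/+ libraries share a series and all Ahr-/- libraries share another. With the series as a covariate, the change with hk S.E. was called for 516 genes, 482 of them among the 641. Since genotype and series coincide in the libraries with hk S.E., the covariate rests on other groups there.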

How the data were processed

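Counts of read pairs per gene were deposited by the authors without normalization. Per the labels and the study's methods, stranded mRNA libraries were trimmed, aligned to mm10 with HISAT2 2.1.0 and counted on GENCODE M22 exons with htseq-count 0.9.1, keeping strand. Entries that name no gene were left out of library sizes, and 75.49% to 79.84% of read pairs were on genes in the 8 libraries. The authors also deposited log2 values from DESeq2's variance-stabilizing transformation (VST), used as an alternative.

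The members and the gene lists were chosen with earlier results of these data known. Genes passing filterByExpr (min.count 10) were TMM-normalized and fitted in edgeR 4.0.16 (R 4.3.3) with 16 group means, 48 residual and 5.06 prior degrees of freedom. Library totals bound the precision, and the SE given is that of the fit. Named genes are Ahr, the 15 higher and 15 lower called genes with the largest differences, no overlap and a mean of at least 1 CPM in the higher group, the tested genes of 4 lists (AhR complex and partners, AhR target genes, C57BL/6 substrain genes, sex check genes), up to 4 called genes of each other list and up to 5 of each test of change. Other names were chosen after their values were seen. Positions are from GENCODE M21 on GRCm38. Alternatives used DESeq2 1.42.0, limma 3.58.1, other size factors, filters, covariates and fewer libraries. The fit was tested on simulated data. Some named items are not reported here.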

Additional observations from a re-analysis of the deposited data

Results flagged for a closer look

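Among the named genes, 146 groups of 4 libraries were searched for a library far from the other 3, together with library depth, and 12 values stood out, where chance alone flags about 1 in 20 groups. The total of 233047331 counts in Ahr+/+ replicate 4 lay above 21347014 to 24423183 in the others. Spint1 was at 3.67 CPM in the same library (others 5.23 to 5.43), and Ryk at 2.21 CPM (1.5 to 1.6). Tspan33 was at 9.58 CPM in Ahr-/- replicate 1 (others 3.40 to 4.22), Ddb1 at 310 CPM (282 to 285) and Scarb1 at 70.8 CPM (59.7 to 61.0). In Ahr-/- replicate 2, Nnt was at 1.61 CPM (0.552 to 0.649), Serpinb6b at 17.4 CPM (30.7 to 32) and Serpinb2 at 0.0618 CPM (0 in the others). Arnt2 was at 0.349 CPM in Ahr+/+ replicate 1 (0.0628 to 0.101), Lpar6 at 81.0 CPM in Ahr+/+ replicate 2 (64.9 to 65.3), and Ido2 at 0 CPM in Ahr-/- replicate 4 (0.0618 to 0.0691). Serpinb2, Ido2 and Arnt2 lie near the floor, where a few reads move the CPM. The rate of 1 in 20 takes no account of this.

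For 20 of the 72 named genes the genotype difference changed between rest and hk S.E. at 20 h. The test was the quasi-likelihood test of edgeR (Benjamini-Hochberg adjusted), which called 641 of all 14537 genes tested (4.41%). Plin2, Cd300c2, Atf3, Cytip and Serpinb6b were named for their small p in this same test. Many other genes were named because they were called at rest, a value that enters the change. The share among named genes thus cannot be set against that of all genes. In the libraries with hk S.E. genotype coincides with the identifier series, so the effects of both cannot be told apart. On the log2 scale, with hk S.E. minus at rest, the change was positive for Rab4a (2.27, SE 0.38, adjusted p = 3.83e-05), Mmp12 (1.12, SE 0.23, 8.47e-04), Slco4a1 (1.00, SE 0.27, 0.00952) and Plau (0.93, SE 0.21, 0.00183). It was also positive for Hsp90ab1 (0.72), Hsp90aa1 (0.63), Mthfd2 (0.50) and Ddb1 (0.33), with adjusted p of 0.00988, 0.00616, 0.0052 and 0.00438.

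The change was negative for Serpinb6b (-3.34, SE 0.43), Cytip (-2.50, SE 0.32), Atf3 (-1.01, SE 0.13), Cd300c2 (-0.92, SE 0.10) and Plin2 (-1.46, SE 0.14), with adjusted p between 1.37e-10 and 7.31e-07 in the edgeR fit. Negative changes were also found for Ahrr (-2.03), Tspan33 (-2.0), C130026I21Rik (-1.71), H2-Q6 (-1.70), H2-Eb1 (-1.56), Arl5c (-0.72) and Ctss (-0.54), with adjusted p between 1.95e-06 and 0.00793.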

How the results depend on the processing

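The counts of 32 higher and 70 lower genes became 16 and 20 with the identifier series as covariate, 0 and 5 in edgeR on the groups compared, 79 and 114 in DESeq2 on these groups, 74 and 120 in DESeq2 on all libraries, and 74 and 269 in limma voom with the mouse as random effect. They became 15 and 24 without Ahr-/- libraries 3 and 4 and 37 and 42 without libraries 1 and 2 (both chosen after seeing the data), and 80 and 185 at a threshold of 0.05. Without a low-count filter, 39 genes were lower. Leaving out each library in turn gave 11 to 42 higher and 29 to 118 lower genes. With a replicate block, 0 genes were called (1384 at an unadjusted p below 0.05). The genotypes cannot share animals, and deviations of same-numbered libraries correlated at -0.16 to 0.117, so the numbers were not taken as pairs. No called named gene changed direction in any of the 21 fits. These fits share the same counts, and most of these genes were named on condition of no overlap, so a reversal was unlikely from the start. Of the 39 called named genes, 34 lost their call in edgeR on the groups compared.

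The change with hk S.E., 641 genes, became 266 on the groups compared, 159 with a replicate block, 1510 in limma voom and 1327 at 0.05. Leaving out each library in turn gave 427 (without replicate 2 of the Ahr-/- libraries with hk S.E.) to 718. The cause of these shifts was not tested. The change from 3 h to 20 h called 0 genes in every fit. Ahr-/- library 2 is the shallowest, with 12152496 counts.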
